A study of Mus musculus with 4 samples.

Results

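Immunoglobulin heavy-chain variable (Ighv) genes were followed through B cell development in bone marrow mononuclear cells of 2 TLR9-/- mice and 2 wildtype (WT) mice. Every gene symbol that begins with Ighv and had at least 1 unique molecular identifier (UMI, the mark of 1 captured molecule) over the 4 libraries was kept. This gave 128 of 185 Ighv genes, out of 31053 genes in the files. Of these, 105 are annotated as functional V genes (of 113) and 23 as V pseudogenes (of 70). The rule used no difference between groups.

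All mice were C57BL/6. TLR9-/- mice lack Toll-like receptor 9, an endosomal sensor of unmethylated CpG DNA, and WT mice carry the intact gene. No treatment or time point entered this experiment, and the age and sex of these 4 mice are not given in the sources used here. Cells were flushed from femur and tibia and taken from the interface of a Ficoll layer, so the B cells of spleen, peritoneum and gut were not sampled. Each library came from 1 mouse, and 2 experiments each held 1 mouse of each genotype. Transcripts were counted from their 5′ end, where a rearranged heavy-chain transcript carries its V segment.

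A heavy-chain gene is assembled in each developing B cell by the Rag1 and Rag2 recombinase, which joins 1 V, 1 D and 1 J segment. Allelic exclusion then leaves most B cells with 1 productive heavy chain. The V segments nearest the D segments, mainly of the Ighv2 and Ighv5 families, are known to be joined early, and the large Ighv1 family fills the distal end. The assembled chain is tested with the surrogate light chain in pre-B cells, is expressed with a κ or λ light chain as IgM on immature B cells and as IgM and IgD on mature B cells, and is secreted in bulk by plasma cells. An Ighv UMI count therefore mixes 2 things, how many cells chose a V segment and how much heavy-chain RNA each of those cells holds.

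The cluster of 185 Ighv genes covered 2437 kb of chromosome 12, minus strand, of GRCm38 (mm10), chr12:113572927-116010093. Sequences of 4 genes are given because the later results turn on them: the most used V gene, the V gene of a heavy-light combination repeated in plasma cells of 2 mice, and the V genes of 2 stereotyped heavy-light combinations. They are the last 300 bases of the GENCODE vM21 coding sequence, written with the gene's position, 5′ to 3′. Capitals mark the bases that differ from the most similar other Ighv gene. Bases 5′ of the coding sequence were not compared, and how far reads tell the genes apart was not tested.

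Ighv3-6 (chr12:114288152-114288582, minus strand; capitals against Ighv3-1): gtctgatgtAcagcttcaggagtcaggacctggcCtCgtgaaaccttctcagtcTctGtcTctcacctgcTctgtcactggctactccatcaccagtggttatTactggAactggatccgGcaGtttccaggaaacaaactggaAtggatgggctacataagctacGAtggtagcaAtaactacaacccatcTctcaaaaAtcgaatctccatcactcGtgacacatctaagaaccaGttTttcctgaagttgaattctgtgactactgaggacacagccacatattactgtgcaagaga

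Ighv1-26 (chr12:114788372-114788805, minus strand; capitals against Ighv1-18): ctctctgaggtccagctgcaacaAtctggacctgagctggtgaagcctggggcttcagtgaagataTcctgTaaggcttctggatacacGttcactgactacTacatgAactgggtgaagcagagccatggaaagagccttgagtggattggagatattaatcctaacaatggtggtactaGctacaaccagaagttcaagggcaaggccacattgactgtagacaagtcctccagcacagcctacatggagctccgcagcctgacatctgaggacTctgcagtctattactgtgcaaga

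Ighv11-2 (chr12:114048241-114048812, minus strand; capitals against Ighv11-1): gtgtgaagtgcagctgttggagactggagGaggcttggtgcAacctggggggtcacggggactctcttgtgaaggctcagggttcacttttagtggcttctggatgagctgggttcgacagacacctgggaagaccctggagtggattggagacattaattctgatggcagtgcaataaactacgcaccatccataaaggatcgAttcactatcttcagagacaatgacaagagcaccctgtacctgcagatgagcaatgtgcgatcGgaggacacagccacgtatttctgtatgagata

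Ighv12-3 (chr12:114366521-114366954, minus strand; capitals against Ighv3-2): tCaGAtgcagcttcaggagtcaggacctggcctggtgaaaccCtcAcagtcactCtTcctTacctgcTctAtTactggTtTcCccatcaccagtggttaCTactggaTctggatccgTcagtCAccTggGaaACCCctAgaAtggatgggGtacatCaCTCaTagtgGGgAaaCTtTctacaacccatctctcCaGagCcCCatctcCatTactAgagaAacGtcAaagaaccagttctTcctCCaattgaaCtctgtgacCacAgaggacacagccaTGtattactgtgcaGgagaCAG

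Ighv3-6 was 91.7% identical to its nearest copy, with 20 of the printed 300 bases in capitals. Ighv1-26 was 96.9% identical to Ighv1-18, and Ighv11-2 was 98.9% identical to Ighv11-1 with 4 bases in capitals, so few coding bases separate these pairs. Ighv12-3 stood far from every other Ighv gene, with 79.7% identity and 63 bases in capitals. Over the 128 genes, the median identity to the nearest Ighv gene was 94.7%. At 99% identity or more stood 2 pairs, and how well reads separate them was not tested. One was Ighv1-62-2 with Ighv1-71, at 7 and 5 UMIs, and the other Ighv1-62-3 with Ighv1-72, at 29 and 3751 UMIs.

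After filtering, the TLR9-/- libraries held 10781 and 8918 cells and the WT libraries 10573 and 8895. Median UMIs per cell ranged from 1759 in WT 1 to 3618 in TLR9-/- 2. Any 2 libraries shared 112 to 185 cell barcodes. In the targeted gene, Tlr9, the libraries held 41 and 48 UMIs in TLR9-/- mice (0.817 and 0.750 UMIs per 1000000 UMIs, CPM) and 120 and 97 in WT mice (3.84 and 2.34 CPM), so Tlr9 was lower in both TLR9-/- libraries but not at 0. Stages were gated on marker UMIs, none of them an Ighv gene. Pre-B cells were gated by any surrogate light chain or recombinase gene, Dntt or Il7r, without Ms4a1 and Ighd. This gate includes the earlier pro-B cells. Immature cells were gated by Ms4a1 without Ighd, mature cells by Ighd, and plasma cells by Jchain of at least 50 UMIs. Of the markers that set no gate, Fcer2a, the CD23 gene, was seen in 10.4% to 37.4% of mature cells and in at most 0.214% of pre-B cells. Immature cells overlapped mature cells in it, at 8.56% to 18.7%, and also in Cr2, the CD21 gene, at 5.53% to 10.6% against 6.23% to 16.2%, so these markers do not separate the 2 gates. Mzb1 and Xbp1 were each seen in at least 94.4% of plasma cells, but neither was specific to them. Mzb1 was also seen in 62.9% to 75.5% of pre-B cells and in 48.8% to 58.3% of mature cells. Xbp1 was also seen in 23.0% to 37.7% of cells with no B marker. The gates were not pure: Igll1, a pre-B gene, was still seen in 4.89% to 13.9% of mature cells, and in 0.739% to 4.18% of immature cells. S100a8, a neutrophil transcript, was also seen in 13.3% to 66.5% of mature cells, and its part in the B cell values was not tested.

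The 128 genes had 122021 UMIs in all, from 1 to 14828 per gene with a median of 93. Ighv1-81 was the highest. At the other end 11 genes had 1 UMI and 25 had fewer than 10. UMIs of 101 genes were found in all 4 libraries and UMIs of 14 genes in 1 library. The 8 functional genes without a UMI were Ighv5-12-4, Ighv7-2, Ighv16-1, Ighv6-4, Ighv6-7, Ighv1-16, Ighv1-24 and Ighv8-13.

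A handful of plasma cells carried most of these molecules. Plasma cells numbered 47 and 20 in TLR9-/- mice and 30 and 18 in WT mice, 0.202% to 0.436% of cells. They held 91.0% and 79.1% of all Ighv UMIs in TLR9-/- mice and 83.4% and 81.0% in WT mice. For this reason B lineage cells are described without plasma cells first, and plasma cells apart.

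**Figure D1:**
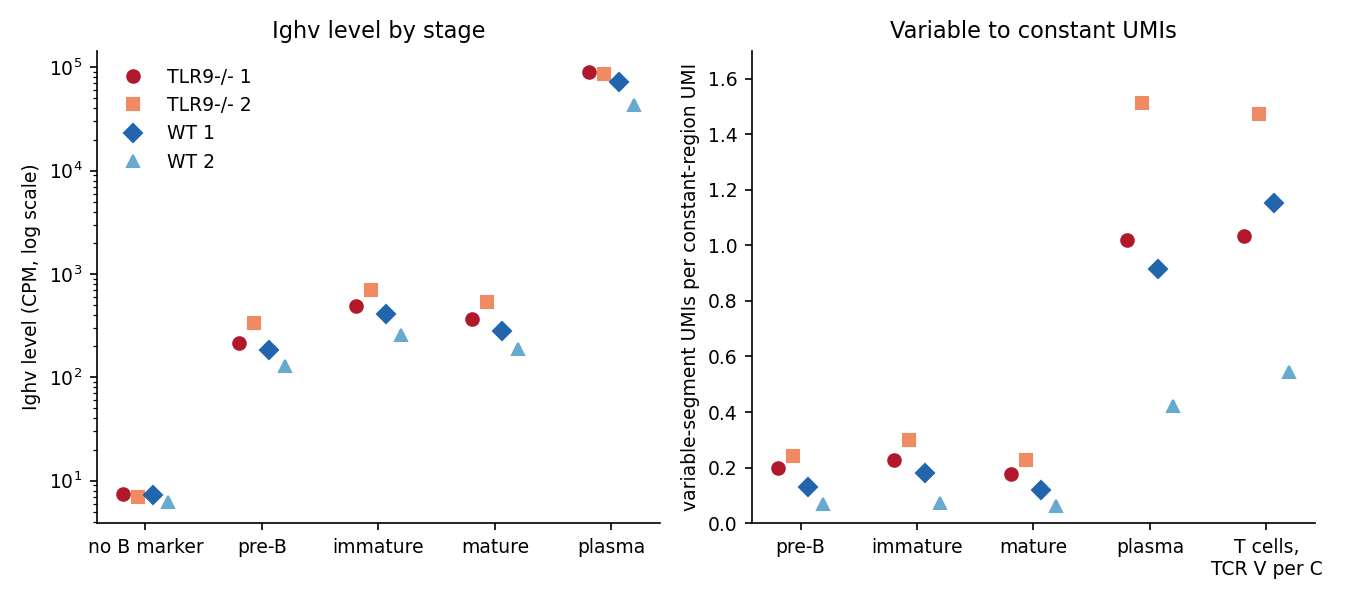
Left, Ighv UMIs per 1000000 UMIs (CPM, log axis) by stage, 1 point per library (1 mouse). Right, variable-segment UMIs per constant-region UMI for the heavy chain in 4 stages and for the T cell receptor in T cells. Plasma cells sit at 43001 to 89642 CPM and cells with no B marker at 6.26 to 7.43, and WT 2 is lowest in every column on the right.

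The Ighv level rose from pre-B to immature cells, fell in mature cells and was highest in plasma cells, in each of the 4 mice. Of the cells in the pre-B gate, 38.2% to 48.0% had an Igll1 UMI and 34.4% to 42.3% a Vpreb1 UMI, both surrogate light chain genes. In pre-B cells TLR9-/- libraries had 214 and 338 Ighv CPM and WT libraries 185 and 129. In immature cells the values were 494 and 707 in TLR9-/- mice and 410 and 256 in WT mice. In mature cells they were 364 and 533 in TLR9-/- mice and 284 and 187 in WT mice. Within a mouse, the log2 level was 1.10 ± 0.09 higher in immature than in pre-B cells (SD, n = 4 mice) and 0.46 ± 0.05 lower in mature than in immature cells. Both differences had the same sign in 4 of 4 mice, and the exact two-sided sign-flip permutation test gave p = 0.125 for each, the smallest value that 4 mice allow. Igll1 stood at 204 to 608 CPM in the mature gate, 10.1 to 173 in the immature gate and 1014 to 1279 in the pre-B gate. The part of pre-B cells within the mature gate in the fall from immature to mature cells was not tested. Plasma cells had 89642 and 85627 Ighv CPM in TLR9-/- mice and 72043 and 43001 in WT mice. That was 7.78 ± 0.31 higher on the log2 scale than in mature cells of the same mouse.

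Cells with no B marker set the background. They had 7.43 and 6.89 Ighv CPM in TLR9-/- mice and 7.24 and 6.26 in WT mice. From 29.5% to 58.5% of these UMIs were of 1 pseudogene, Ighv1-41, which is described further below. Without it the values were 4.97 and 3.82 CPM in TLR9-/- mice and 5.11 and 2.59 in WT mice, which were less close together. Thus the lowest pre-B value, 129 CPM in WT 2, lay above the 6.26 CPM of cells with no B marker in that library. As sequenced, an Ighv UMI was seen in 32.8% to 65.3% of B lineage cells and in 2.20% to 4.32% of cells with no B marker. At 1000 UMIs per cell the expected shares were 28.9% and 45.0% in TLR9-/- mice and 23.5% and 18.6% in WT mice, after 1034, 144, 1958 and 606 shallower cells were left out. Cells with no B marker then stood at 0.708% to 1.00%.

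Both TLR9-/- libraries were above both WT libraries at each of the 4 stages. In B lineage cells without plasma cells, TLR9-/- mice had 398 ± 131 Ighv CPM (SD, n = 2) and WT mice 210 ± 64, a ratio of 1.89. An exact two-sided permutation test gave p = 0.33, which is the smallest p that 2 mice against 2 allow. The order of the libraries was TLR9-/- 2, TLR9-/- 1, WT 1 and WT 2 in pre-B, immature and mature cells, and in plasma cells TLR9-/- 1 was the highest.

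The constant regions did not follow the V segments. Heavy-chain constant genes had 1505 and 1968 CPM in B lineage cells of TLR9-/- mice and 1865 and 2530 in WT mice. Ighv UMIs per constant-region UMI were 0.203 and 0.249 in TLR9-/- mice and 0.137 and 0.065 in WT mice. Light-chain and T cell receptor transcripts, which the heavy-chain locus does not encode, gave part of the same order. In B lineage cells Igkv UMIs per Igkc UMI were 2.49 and 3.14 in TLR9-/- mice and 2.27 and 1.60 in WT mice. In T cells, V per C UMIs of the T cell receptor were 1.03 and 1.47 in TLR9-/- mice and 1.15 and 0.542 in WT mice. TLR9-/- 2 was the highest and WT 2 the lowest in these 3 ratios. In the same pooled B lineage cells the λ light chain did not give that order. Iglv UMIs per Iglc UMI were 0.629 and 0.421 in TLR9-/- mice and 0.508 and 0.426 in WT mice, with TLR9-/- 2 the lowest. By stage, both TLR9-/- libraries lay above both WT libraries in pre-B, immature and plasma cells. Immature cells had 0.619 and 0.623 in TLR9-/- mice and 0.486 and 0.458 in WT mice. Mature cells overlapped, with 0.505 and 0.265 in TLR9-/- mice and 0.395 and 0.320 in WT mice. The part of the library in the Ighv difference was not tested.

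A heavy chain was assigned to a cell when the leading Ighv gene had at least 2 UMIs and at least 80% of the Ighv UMIs of the cell. Outside plasma cells this named a V gene for 594 and 895 cells of TLR9-/- mice and 544 and 449 cells of WT mice. These were 17.2% and 36.9% of B lineage cells in TLR9-/- mice and 10.2% and 10.0% in WT mice. Among cells with 2 UMIs on the leading gene, a second Ighv gene also reached 2 UMIs in 0.762% and 2.78% of TLR9-/- cells and in 1.35% and 1.23% of WT cells. Of the 128 genes, 96 led at least 1 of the 2482 heavy-chain cells, 64 did so in all 4 libraries and 82 in both genotypes. Pseudogenes led 5 of these cells. The 11 genes used in TLR9-/- mice alone led at most 13 cells each, and the 3 used in WT mice alone led 1 cell each, with fewer WT than TLR9-/- heavy-chain cells to draw from.

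**Figure D2:**
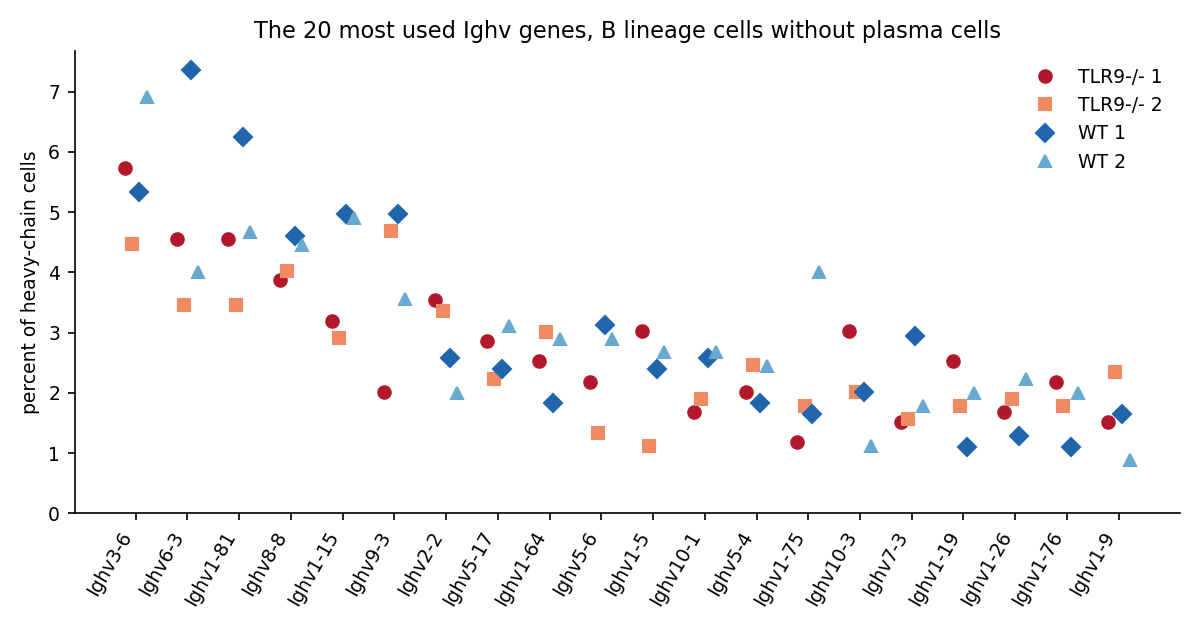
Share of heavy-chain cells (percent) that used each of the 20 most used Ighv genes in B lineage cells without plasma cells, 1 point per library. Ighv3-6 is the most used on average, from 4.47% in TLR9-/- 2 to 6.90% in WT 2, and the genotypes overlap at most genes.

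No V gene took more than 7.35% of heavy-chain cells in any mouse. Ighv3-6, a V gene 715 kb from the D-proximal end of the cluster, was used by 5.72% and 4.47% of heavy-chain cells in TLR9-/- mice and by 5.33% and 6.90% in WT mice. Ighv6-3 was used by 4.55% and 3.46% in TLR9-/- mice and by 7.35% and 4.01% in WT mice. Ighv1-81, at the distal end, was used by 4.55% and 3.46% in TLR9-/- mice and by 6.25% and 4.68% in WT mice. For Ighv3-6 and Ighv6-3 the genotypes overlapped, and for Ighv1-81 both WT values lay above both TLR9-/- values. Of the 96 genes in use, 11 were higher in WT mice without overlap and 21 were higher in TLR9-/- mice. A lack of overlap was therefore not particular to Ighv1-81. With so few mice per genotype, random labels leave untied values without overlap with probability 0.33. These counts alone therefore do not show that the genotypes differ.

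Ighv8-8 was used by 3.87% and 4.02% of cells in TLR9-/- mice and by 4.60% and 4.45% in WT mice. Ighv1-15 was used by 3.20% and 2.91% in TLR9-/- mice and by 4.96% and 4.90% in WT mice. Ighv9-3 ranged from 2.02% in TLR9-/- 1 to 4.96% in WT 1. The next 4 genes were Ighv2-2, Ighv5-17, Ighv1-64 and Ighv5-6, with mean shares of 2.87%, 2.65%, 2.57% and 2.39%. Together the 10 most used genes held 33.0% of heavy-chain cells in the lowest library and 43.4% in the highest.

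Across the 96 genes in use, the shares of any 2 libraries correlated with Pearson r from 0.825 to 0.874. The pairs within a genotype, at 0.853 and 0.852, lay inside the range of the pairs between genotypes. This is a description across genes, which share a locus and a calling rule and are not replicates. Of the total usage, 74.7% to 80.1% was common to 2 libraries.

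**Figure D3:**
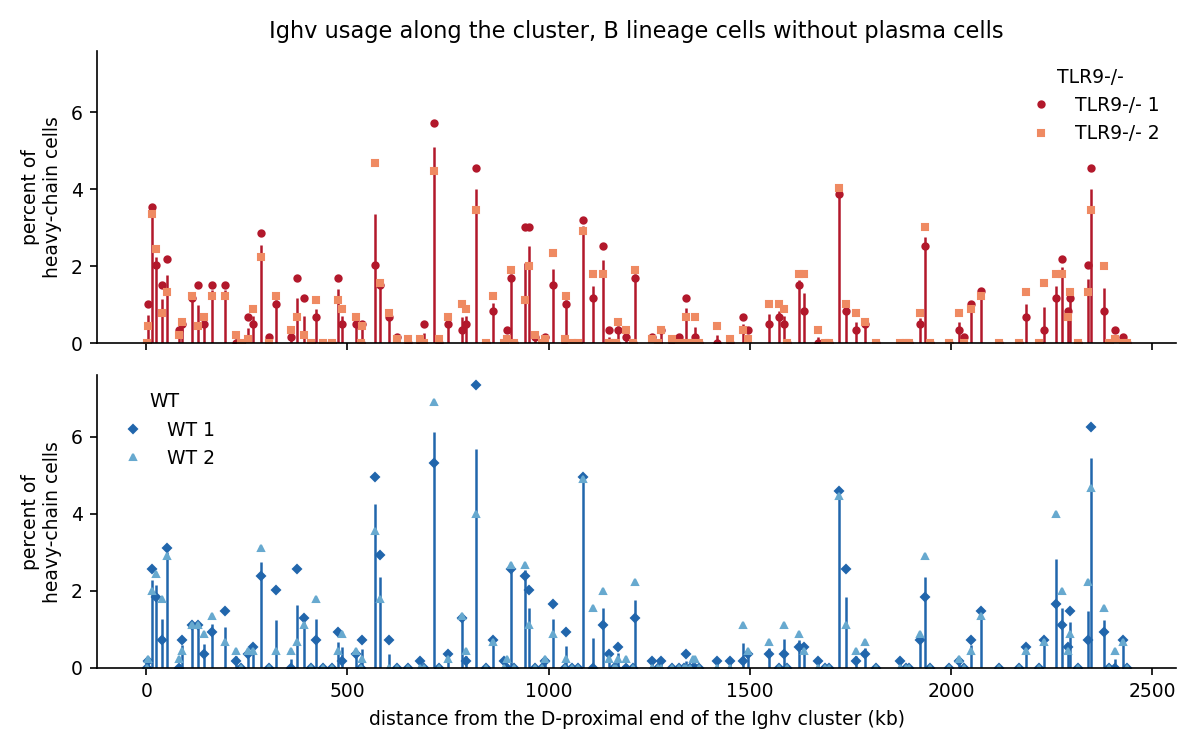
Share of heavy-chain cells (percent) against distance in kb from the D-proximal end of the Ighv cluster, for TLR9-/- mice (top) and WT mice (bottom). Points are libraries and lines the mean of 2 mice; the first 2 of 4 equal lengths of the cluster hold 35 and 36 of the 128 genes and together 61.8% to 68.8% of the cells of a library.

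Along the cluster, the share of cells followed in part the number of genes. Of 4 equal lengths of the cluster, the nearest to the D segments, with 35 of the genes, held 33.7% and 31.2% of heavy-chain cells in TLR9-/- mice and 35.1% and 31.4% in WT mice. The second length, with 36 genes, held 30.6% to 33.6%, the third, with 29, held 11.4% to 16.1% and the distal one, with 28, held 19.9% to 23.8%. By family, Ighv1, with 68 of the 128 genes, held 42.8% and 47.2% of cells in TLR9-/- mice and 37.9% and 44.8% in WT mice. Its mean was 45.0 ± 3.1% in TLR9-/- and 41.3 ± 4.9% in WT mice (SD, n = 2; exact permutation p = 0.67), a difference of 3.64 percentage points. With at least 5 UMIs on the leading gene, a limit that fewer cells pass, the difference was 10.2, and the genotypes overlapped. The number of cells that passed was not counted. The shares were then 32.5% and 39.5% in TLR9-/- mice and 15.2% and 36.4% in WT mice. The D-proximal Ighv2 and Ighv5 families together held 21.5% and 17.4% in TLR9-/- mice and 17.6% and 19.6% in WT mice. Their mean was 19.5 ± 2.9% in TLR9-/- and 18.6 ± 1.4% in WT mice (exact permutation p = 1). Next in size were Ighv3 at 5.59% to 8.24%, Ighv8 at 5.47% to 6.80% and Ighv6 at 4.68% to 8.09%.

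The effective number of Ighv genes, which counts genes as if all were used equally, was higher in TLR9-/- mice. It was 47.8 and 51.5 in TLR9-/- mice and 35.7 and 40.8 in WT mice, with no overlap at this calling limit. The difference was 11.4 with exact permutation p = 0.33, again the smallest possible. The single most used gene took 5.72% and 4.69% of cells in TLR9-/- mice and 7.35% and 6.90% in WT mice, with the same p. With at least 5 UMIs on the leading gene, where fewer cells were left, the groups overlapped in both measures. The effective number was then 30.1 and 39.0 in TLR9-/- mice and 17.6 and 40.6 in WT mice, a difference of 5.45. The most used gene then took 10% and 6% in TLR9-/- mice and 15.2% and 9.09% in WT mice. By stage, the effective number in pre-B cells overlapped, with 50.2 and 51.7 in TLR9-/- mice and 37.7 and 50.6 in WT mice. In mature cells it was 43.2 and 51.6 in TLR9-/- mice and 32.5 and 36.6 in WT mice. The TLR9-/- libraries were also those with the larger shares of cells assigned, and the part of call rate in this difference was not tested.

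Between pre-B and mature cells the use of a few genes moved in every mouse. Ighv3-6 went from 3.21% to 9.86% of heavy-chain cells in TLR9-/- 1, from 4.26% to 4.79% in TLR9-/- 2, from 4.28% to 9.16% in WT 1 and from 3.85% to 9.26% in WT 2. The mean difference was 4.37 ± 2.66 percentage points (SD, n = 4 mice), higher in mature cells in 4 of 4. Ighv5-2, known as VH81X and joined often in early B cell precursors, went the other way. It led 3, 3, 1 and 1 pre-B cells in TLR9-/- 1, TLR9-/- 2, WT 1 and WT 2, and 0, 1, 0 and 0 mature cells. Its UMIs in the same order were 14, 13, 8 and 3 in pre-B and 1, 7, 1 and 4 in mature cells. By UMIs it therefore did not fall in WT 2, and the counts are small. The D-proximal families together were lower in mature than in pre-B cells in 4 of 4 mice, by 0.96 to 3.0 percentage points. For each of these 3 differences in the share of heavy-chain cells the exact sign-flip permutation p was 0.125, the smallest that 4 mice allow.

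A fit of summed UMIs in mature against pre-B cells with the mouse as a block (edgeR quasi-likelihood test, Benjamini-Hochberg adjustment over 10432 genes) tested 40 Ighv genes. Of these, 16 were higher in mature cells and 0 were lower, beside 16.1% of all genes higher and 15.8% lower. At an unadjusted p under 0.05, 21 were higher and 0 lower. For Ighv3-6 the log2 fold change was 1.56 ± 0.16 (SE; adjusted p = 4.3e-05). Ighv8-12 (1.73 ± 0.26), Ighv2-9-1 (1.7 ± 0.26), Ighv1-82 (1.47 ± 0.26) and Ighv1-76 (1.46 ± 0.27) also rose. When library size was set to the Ighv UMIs, which compares each V gene with the other V genes, those 5 rose in the fit. Ighv14-2, Ighv1-75 and Ighv6-3 fell. Not every mouse went that way. Ighv1-82 fell and Ighv14-2 rose in TLR9-/- 1, and Ighv1-75 and Ighv6-3 rose in WT 2. At this scaling the median change of all genes was -0.65, with 4.57% of all genes higher and 73.6% lower. With so many genes called, the adjustment changed p little, for Ighv6-3 from 0.029 to 0.038. A call near the threshold is therefore weak here, and an adjustment over the V genes alone was not made. The comparison of stages, its scaling and the genes named from it were chosen after the values were seen.

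**Figure D4:**
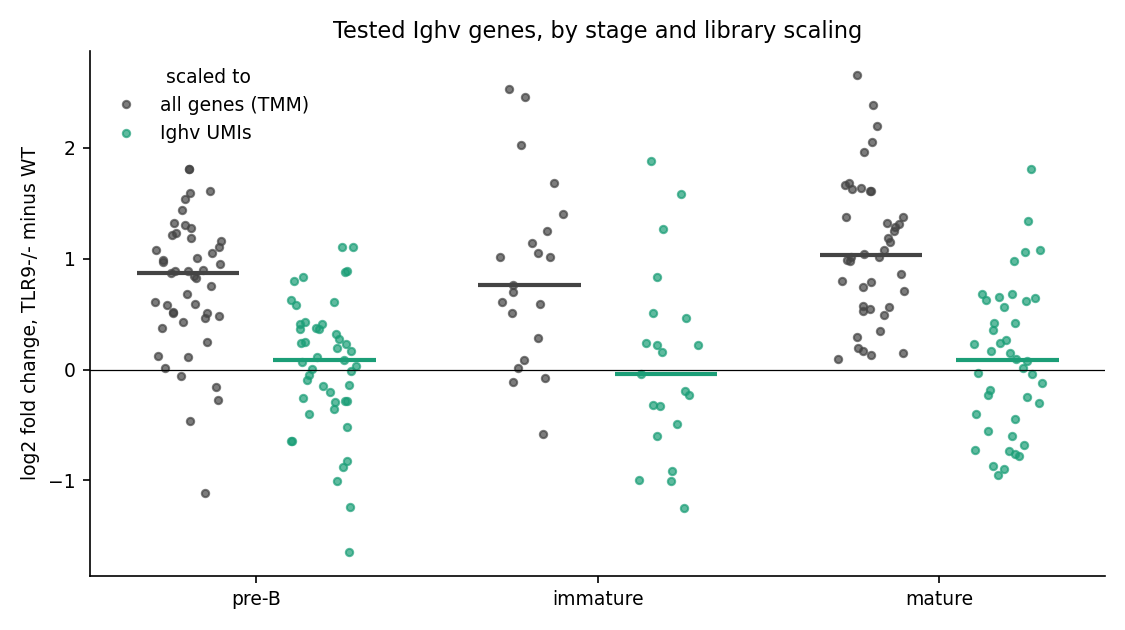
Log2 fold change (TLR9-/- minus WT) of each tested Ighv gene in pre-B, immature and mature cells, with libraries scaled to all genes (grey) or to their Ighv UMIs (green). Bars are medians. On the first scale the medians lie between 0.76 and 1.03. On the second, which evens out the summed Ighv level by construction, they lie between -0.04 and 0.09.

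Single V genes were then compared between TLR9-/- and WT mice in a fit across all genes for each stage (edgeR quasi-likelihood test on UMIs summed per mouse, adjusted p over all genes tested). Levels of single genes in these fits are CPM after TMM scaling. In pre-B cells 47 Ighv genes passed the filter on low counts and 0 were called, beside 0.431% of all genes. In immature cells 21 were tested and 0 called, beside 0.272%, and in mature cells 42 were tested and 0 called, beside 0.246%. DESeq2 also called 0 in each of these 3 stages. At an unadjusted p under 0.05, 16, 7 and 20 Ighv genes were higher in TLR9-/- mice and 0 lower, beside 5.41%, 4.12% and 3.12% of all genes higher.

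The medians show the same shift as the summed level. The median log2 fold change of the tested Ighv genes was 0.87 in pre-B, 0.76 in immature and 1.03 in mature cells, beside -0.02, -0.01 and -0.01 over all genes. With libraries scaled to their Ighv UMIs these medians were 0.09, -0.04 and 0.09, with 0 genes called. That scaling evens out the summed Ighv level, so it draws the medians towards 0 by construction. The genes that pass the filter are those with enough UMIs in 2 libraries, so these medians describe the tested genes and not all 128.

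The lowest adjusted p in immature cells was that of Ighv8-8, at 33.3 and 46.2 CPM in TLR9-/- mice and 15.2 and 14.7 in WT mice. Its log2 fold change was 1.41 ± 0.30 (SE; adjusted p = 0.089). In mature cells it was Ighv2-2, at 9.71 and 25.4 CPM in TLR9-/- mice and 2.58 and 4.91 in WT mice (2.19 ± 0.49; adjusted p = 0.20). In pre-B cells it was Ighv3-6, at 10.1 and 12.7 in TLR9-/- mice and 6.22 and 2.99 in WT mice (1.30 ± 0.37; adjusted p = 0.30). In each of the 3 the TLR9-/- values lay above the WT values, and none passed the threshold.

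With all B lineage cells pooled, plasma cells included, 75 Ighv genes were tested and 3 called, beside 0.284% of all genes. Ighv1-76 was at 207 and 231 CPM in TLR9-/- mice and at 3.32 and 3.57 in WT mice (log2 fold change 5.98 ± 0.22; adjusted p = 0.00080). Ighv5-17 was at 178 and 117 in TLR9-/- mice and 5.11 and 4.11 in WT mice (5.0 ± 0.29; adjusted p = 0.0023). Ighv1-22 was lower, at 1.52 and 2.12 in TLR9-/- mice and 49.0 and 81.2 in WT mice (-5.16 ± 0.35; adjusted p = 0.0033).

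For all 3 genes 1 or 2 plasma cells per mouse of the higher genotype held most of the UMIs. Such cells are not replicates of a genotype, so the pooled p-values and calls cannot decide whether the genotypes differ. Ighv1-76 led 2 plasma cells of TLR9-/- 1 and 1 of TLR9-/- 2, which held 2122 and 2114 of its UMIs. Ighv5-17 led 2 and 1 plasma cells in the same mice, and Ighv1-22 led 1 plasma cell in each WT mouse. Without plasma cells, 70 Ighv genes were tested and 0 called, beside 0.243% of all genes. There, Ighv1-76 stood at 0.91 ± 0.29 on the log2 scale (adjusted p = 0.49), Ighv5-17 at 0.91 ± 0.26 (adjusted p = 0.41) and Ighv1-22 at -0.26 ± 0.46 (adjusted p = 0.92). At an unadjusted p under 0.05, 28 of the 70 were higher and 0 lower in TLR9-/- mice, beside 4.57% of all genes higher.

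The other large changes in the pooled fit also went with plasma cell UMIs, of 1 library for most genes and of both TLR9-/- libraries for Ighv5-6. Ighv10-1 had the highest fold change (6.84 ± 2.16; adjusted p = 0.52), with 8720 plasma cell UMIs in TLR9-/- 2 and 0 in the other 3 libraries. Ighv1-39, Ighv2-9-1 and Ighv5-6 followed at 6.61, 6.33 and 6.32, and Ighv1-76 at 5.98. Ighv4-1 had the lowest (-5.55 ± 1.97; adjusted p = 0.58), with 3634 plasma cell UMIs in WT 1 and 0 elsewhere, followed by Ighv1-22 (-5.16), Ighv3-3 (-4.82), Ighv5-16 (-4.75) and Ighv1-75 (-4.21). Outside plasma cells Ighv10-1 stood at 0.33 ± 0.45 and Ighv4-1 at -0.17 ± 0.65.

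Of the other fixed genes, Ighv14-4 had 2.36 and 6.16 CPM in TLR9-/- mice and 2.19 and 0.97 in WT mice without plasma cells (1.44 ± 0.57; adjusted p = 0.61). Ighv5-2 had 2.76 and 2.64 in TLR9-/- mice and 1.05 and 0.62 in WT mice (1.7 ± 0.45; adjusted p = 0.34). Neither passed the threshold.

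**Figure D5:**
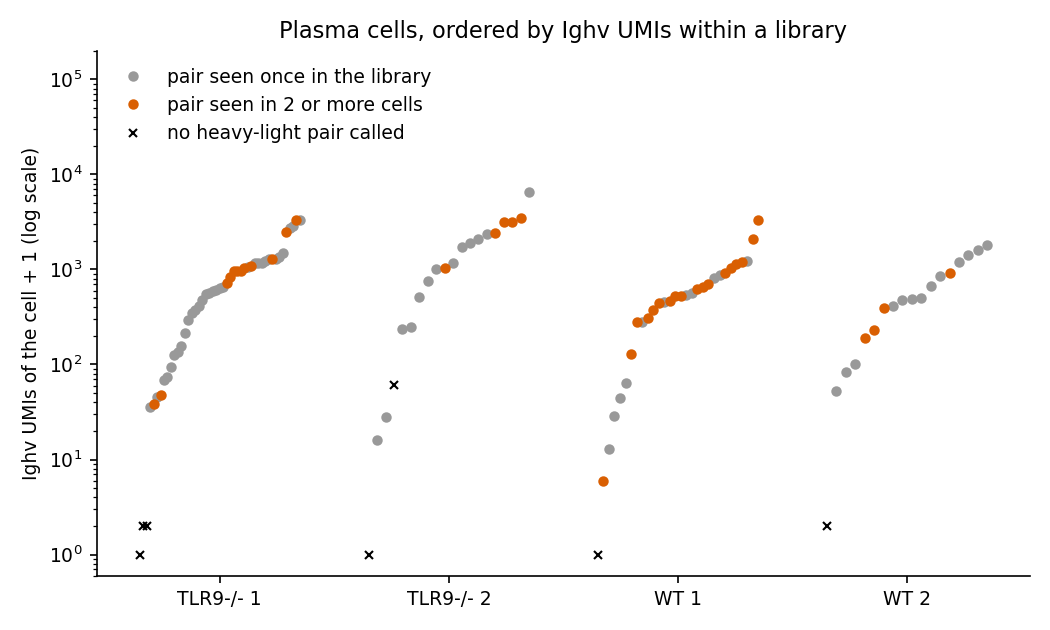
Ighv UMIs of each plasma cell plus 1 (log axis), ordered within a library. Orange cells share their heavy-light combination with another plasma cell of the same library, grey cells do not, and crosses have no combination; orange cells number 12 of 44 in TLR9-/- 1 and 18 of 29 in WT 1.

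Plasma cells differed from mouse to mouse. Igha, the constant gene of IgA, led the heavy-chain constant UMIs in most plasma cells of every mouse but WT 2. It led in 35 of 47 and 13 of 20 plasma cells of TLR9-/- mice and in 20 of 30 and 8 of 18 of WT mice. A plasma cell held a median of 634 and 1104.5 Ighv UMIs in TLR9-/- mice and of 527 and 478 in WT mice. The highest single cell had 3329 and 6533 in TLR9-/- mice and 3343 and 1796 in WT mice. A second Ighv gene reached 2 UMIs in 15.9% and 26.3% of plasma cells with a leading gene in TLR9-/- mice and in 37.9% and 17.6% in WT mice.

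A plasma-cell fit of 17 Ighv genes called 0, beside 0% of all genes, while 4 Ighv genes had an unadjusted p under 0.05, beside 4.54% of all genes, and DESeq2 called 4. Those 4 genes were absent or nearly absent in 1 genotype, so they passed the filter on low counts only through the other. Ighv5-17 had 1795 and 1016 plasma cell UMIs in TLR9-/- mice and 0 and 0 in WT mice, at least 612-fold higher against a floor of 3 UMIs over the 2 libraries. Ighv5-6 had 1334 and 6531 in TLR9-/- mice, from 1 cell each, and 0 and 0 in WT mice, at least 1713-fold higher. Ighv1-22 had 0 and 0 in TLR9-/- mice and 541 and 1182 in WT mice, at least 879-fold higher in WT. Each of these rests on 1 or 2 cells per mouse, which are not replicates of a genotype. The p-values, calls and fold bounds therefore cannot decide whether the genotypes differ.

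The Ighv1 family took more of the plasma cells than of the other B lineage cells in 4 of 4 mice. It led 63.6% and 50% of heavy-chain plasma cells in TLR9-/- mice and 65.5% and 70.6% in WT mice. The difference within a mouse was 19.3 ± 11.3 percentage points (SD, n = 4; exact sign-flip permutation p = 0.125), and cells of 1 repeated combination count more than once in it.

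Plasma cells that share a heavy-light combination were taken apart. A combination was counted when the leading Ighv gene and the leading Igkv or Iglv gene were the same in 2 or more plasma cells of a library. TLR9-/- mice had 5 and 2 such combinations, covering 12 of 44 and 5 of 18 plasma cells with both chains (27.3% and 27.8%). WT mice had 7 and 1, covering 18 of 29 and 4 of 17 (62.1% and 23.5%). Means were 27.5 ± 0.4% in TLR9-/- and 42.8 ± 27.3% in WT mice (SD, n = 2; exact permutation p = 1). WT 1 decided the sign, and without it the TLR9-/- mean was 4.0 percentage points higher. The files hold no junction sequence, so cells of 1 combination may or may not come from 1 clone.

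In TLR9-/- 1, Ighv1-26 with Igkv4-57 was found in 4 cells, of which 3 used Igha and 1 Ighm, with 3017 Ighv UMIs. Ighv1-76 with Igkv4-59 and Ighv1-78 with Igkv10-94 were found in 2 cells each, with 2122 and 1799 UMIs. The largest by UMIs was Ighv3-6 with Igkv8-30, whose 2 Igha cells held 5779 UMIs. In TLR9-/- 2, Ighv10-1 with Igkv6-15 was found in 3 Igha cells with 8720 UMIs, and Ighv1-81 with Igkv1-135 in 2 Igha cells with 4513. The 3 cells of Ighv10-1 held 2435 to 3158 UMIs each, so no single cell carried the total.

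In WT 1, Ighv1-75 with Igkv10-94 was found in 4 Igha cells with 3193 UMIs. Ighv1-53 with Igkv10-96 was found in 3 cells with 1684 UMIs, and Ighv1-72 with Igkv1-117 in 3 cells with 996. Another Ighv1-72 combination, with Igkv4-80, rested on a cell with 1037 UMIs and a cell with 4. In WT 2 the only repeated combination was Ighv1-26 with Igkv4-57, in 4 cells with 1725 UMIs, of which 3 used Igha.

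Ighv1-26 with Igkv4-57 was thus the most frequent combination in a TLR9-/- and in a WT mouse, with 4 cells in each. The 2 other mice had 0 cells of it, although TLR9-/- 2 had 1 plasma cell with 1704 Ighv1-26 UMIs, paired with Igkv4-74. Outside plasma cells, 25 Ighv1-26 cells had a light chain and 0 of them used Igkv4-57. Of 1612 cells with another heavy chain 15 did (0.931%), so 25 cells are too few to show a lower share. Ighv5-6 with Iglv1 was found in 1 cell of each TLR9-/- mouse, and Ighv11-2 with Igkv14-126 in 1 cell of TLR9-/- 2 and 1 of WT 1.

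Stereotyped combinations stood out among the other B lineage cells. Ighv11-2 with Igkv14-126 and Ighv12-3 with Igkv4-91 are known from B-1 cells, innate-like B cells whose receptors bind phosphatidylcholine. Ighv11-2 led 10, 10, 5 and 2 cells in TLR9-/- 1, TLR9-/- 2, WT 1 and WT 2, or 1.68%, 1.12%, 0.919% and 0.445% of heavy-chain cells. Of 26 such cells with a light chain assigned, 23 used Igkv14-126 (88.5%), in 10, 7, 4 and 2 cells of the 4 mice in the same order. Among 1611 cells with another heavy chain, 10 did (0.621%). This was the most frequent of 1164 combinations seen in 1637 cells, and the next 3 had 9 cells each.

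Ighv11-2 led 13 immature and 8 mature cells and 6 B lineage cells outside the 3 stage gates. It led 0 of 749 pre-B heavy-chain cells, which allows a share of up to 0.401% by counting error alone, with the cells of all mice pooled. A few pre-B UMIs were found (3, 0, 1 and 4 in the 4 libraries), so the V gene was not absent from that gate. In the pooled fit without plasma cells Ighv11-2 had 6.50 and 7.81 CPM in TLR9-/- mice and 2.01 and 1.18 in WT mice. Its log2 fold change of 2.17 ± 0.37 had the lowest adjusted p of the 70 tested genes, 0.085, and did not pass.

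Ighv12-3 was rarer, leading 3, 8, 1 and 2 cells. Of 10 with a light chain, 7 used Igkv4-91, in 2, 3, 1 and 1 cells of the 4 mice, against 7 of 1627 cells with another heavy chain (0.430%). Both combinations were found in both genotypes. Ighv12-3 stood at 2.17 and 4.51 CPM in TLR9-/- mice and at 1.05 and 0.83 in WT mice (1.82 ± 0.49; adjusted p = 0.37). Light-chain use was examined after the heavy-chain values had been seen.

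A list of 27 genes that act on heavy-chain assembly was followed beside the V genes. In B lineage cells without plasma cells 23 were tested, 0 were called higher and 0 lower. Their median log2 fold change was -0.23, beside -0.01 over all genes. The J segments Ighj1 to Ighj4 had 0 UMIs in every library. Rag1, a subunit of the recombinase, had 53.4 and 47.3 CPM in TLR9-/- mice and 80.1 and 79.5 in WT mice (-0.66 ± 0.16; adjusted p = 0.30). In pre-B cells Rag1 stood at 80.8 and 101 in TLR9-/- mice and 130 and 138 in WT mice (-0.57 ± 0.17; adjusted p = 0.32). Lig4, the ligase that seals the joins, had 20.6 and 18.5 in TLR9-/- mice and 25.3 and 30.1 in WT mice (-0.51 ± 0.19; adjusted p = 0.57). Neither passed the threshold, which 0.243% of all genes did. For both genes the genotypes did not overlap, and this was not particular to them. Among other listed genes, Rag2 had 35.7 and 18.9 in TLR9-/- mice and 44.5 and 37.1 in WT mice. Pax5 had 120 and 135 in TLR9-/- mice and 151 and 194 in WT mice. The share of all genes without overlap was not counted. With 2 mice against 2, random labels leave untied values without overlap with probability 0.33. Rag1, Rag2 and Dntt helped set the pre-B gate, and Ebf1 and Pax5 the B lineage gate, so their levels are not independent of the gates. Pre-B cells were 1504 of 3462 and 571 of 2424 B lineage cells in TLR9-/- mice. In WT mice they were 2333 of 5327 and 1614 of 4486. The part of the gates and of these numbers in the values was not tested.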

How the data were processed

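The deposited matrices hold raw UMI counts per gene and cell for 4 bone marrow libraries, made by the authors from 5′ 10x libraries with Cell Ranger (3.0.1 per the file headers) on mm10; the submitters' notes also name STAR and Seurat 2.3.4. Cell Ranger counts uniquely mapped reads, so near-identical V genes can lose reads, which was not tested here. Cells with 200 to 10000 genes and at most 10% mitochondrial UMIs were kept. Doublets were not called or removed here. B lineage cells had at least 3 of 6 B cell markers, and 1 UMI of a marker set a stage. Plasma cells also needed 1 of 5 plasma markers. Light chains needed 2 UMIs and 50% of a cell's light V UMIs.

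UMIs were summed per mouse and stage and tested with edgeR 4.0.16 (quasi-likelihood, TMM, filter on low counts, Benjamini-Hochberg over all genes, threshold 0.05) in R 4.3.3, with DESeq2 1.42.0 as alternative. Shares used exact permutation tests (scipy 1.17.1). The code was tested on simulated data. Each mouse is 1 replicate. SDs are between mice and SEs are those of the fits, while the bound on a count of 0 and the fold floors cover counting error only. The replicate numbers were not taken as pairs, since the labels do not tie them to an experiment. Sequences were compared with Biopython 1.88 against GENCODE vM21.

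Named genes were the 10 most used, all called genes (at most 10), the 5 highest and 5 lowest fold changes over all B lineage cells, the leading plasma genes, up to 3 repeated combinations per library, and Ighv5-2, Ighv2-2, Ighv11-2, Ighv12-3, Ighv1-26, Ighv6-3 and Ighv14-4; others named were chosen after their values were seen. The members, gene lists and tests were chosen with earlier results of these data known. The alternatives were another size factor, DESeq2, no filter, Ighv-UMI scaling, a replicate block, 2 UMIs on stage markers, other calling limits and leaving out each mouse.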

Additional observations from a re-analysis of the deposited data

How the results depend on the processing

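In all B lineage cells the 3 called Ighv genes became 6 with DESeq2, 47 with no filter on low counts, 23 with libraries scaled to Ighv UMIs, 6 to 20 with 1 mouse left out (20 without TLR9-/- 2) and 0 without plasma cells. Ighv1-76, Ighv5-17 and Ighv1-22 kept direction in the other 10 settings each, and without plasma cells stood at 0.91, 0.91 and -0.26. Each of those 10 settings included plasma cells, so they could not test whether the genotypes differ apart from these cells. The 0 calls became 3, 9 and 6 in pre-B, immature and mature cells with no filter, and 0 to 2, 1 to 5 and 0 to 2 with 1 mouse left out. In plasma cells they became 4 with DESeq2, 7 with Ighv scaling and 0 to 22 with 1 mouse left out (22 without TLR9-/- 1). The lone mouse of a group was assumed to vary like the others. The 16 calls between mature and pre-B cells became 8 with Ighv scaling. The cause of these changes was not tested.

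With the replicate block, calls numbered 7 in all B lineage, 0 in pre-B, 3 in immature and 1 in mature cells. Same-numbered libraries deviated together (correlation 0.39 over 11150 genes), but 2 pairs are too few to take the numbers as pairs.

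The D-proximal difference, 0.87 percentage points, reversed to -3.76 with at least 5 UMIs on the leading gene and lay between -1.19 and 2.93 with 1 mouse left out. The same ranges were 0.19 to 7.09 for the Ighv1 family, -2.44 to -1.40 for the most used gene, 8.88 to 13.9 for the effective number and -34.5 to 4.0 for repeated plasma combinations. With at least 5 UMIs on the leading gene, the Ighv1 difference went from 3.64 to 10.2, that of the most used gene from -1.92 to -4.12 and that of the effective number from 11.4 to 5.45, outside those ranges. At that limit fewer cells were left, their number was not counted, and the genotypes overlapped in each of these measures. Depth limits genes with few UMIs, of which 25 had fewer than 10.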

Other observations

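A pair of pseudogenes were found mostly outside the B lineage, a pattern chosen after the values were seen. Ighv1-41 (chr12:114932371-114932782, GRCm38) had 418 UMIs, of which 284 lay in cells with no B marker. It made up 33.2% and 44.6% of the Ighv UMIs of such cells in TLR9-/- mice and 29.5% and 58.5% in WT mice. Cells with neutrophil markers held 239 of these UMIs. In CPM they had 8.43 and 8.26 in TLR9-/- mice and 8.56 and 8.32 in WT mice, so the 4 libraries were close, against 0 to 1.94 in cells with markers of other lineages. Ighv8-10 had 52 UMIs, 45 of them in neutrophil-marker cells. The source of these UMIs was not tested.

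Cells outside every gate held 1.46% and 9.41% of Ighv UMIs in TLR9-/- mice and 3.51% and 1.00% in WT mice. In TLR9-/- 2, 1 such cell had 2734 UMIs of Ighv1-77 and 1057 of Jchain.

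The 5 leading plasma genes took 50.2% and 79.8% of plasma Ighv UMIs in TLR9-/- mice and 78.3% and 68.0% in WT mice. In cells with no B marker the same genes took 13.9% and 17.5% in TLR9-/- mice and 25.7% and 7.32% in WT mice. These rest on 29 and 44 UMIs in TLR9-/- mice and 27 and 9 in WT mice. Ighv1-41, at 29.5% to 58.5% of the Ighv UMIs of such cells, lowers these shares. In B lineage cells without plasma cells the same genes took 17.3% and 8.75% in TLR9-/- mice and 13.3% and 12.6% in WT mice.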
